A study of Mus musculus with 6 samples.

Results

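The genes that write and remove DNA methylation, or supply the enzymes that remove it, were followed in mouse long-term haematopoietic stem cells (LT-HSC) after deletion of Prdm16. The set held 10 genes, taken by symbol from the NCBI gene IDs of the deposited table, out of 27179 genes in all. They were the maintenance pair Dnmt1 and Uhrf1, the de novo methyltransferases Dnmt3a and Dnmt3b, the dioxygenases Tet1, Tet2 and Tet3, the glycosylase Tdg, and the isocitrate dehydrogenases Idh1 and Idh2. None of the 10 passed the test between the groups, and every 95% interval of a fold change lay between 0.784 and 1.52.

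All mice were C57BL/6, 8 to 12 weeks old, and homozygous for the conditional allele of Prdm16, a zinc-finger transcriptional regulator (Prdm16-Mx1-Cko/Cko). The control group (WT) had no Mx1-Cre (+/+), so it kept Prdm16 while carrying the conditional alleles. The knockout group (Cko) carried it (Tg/+), in which the interferon-responsive Mx1 promoter drives Cre and is therefore not restricted to stem cells. Both groups received 5 injections of pIpC, a synthetic double-stranded RNA that induces interferon, and marrow was taken 5 weeks later. LT-HSC were sorted as Lin-, Sca-1+, c-Kit+, CD48- and CD150+ from marrow pooled over 5 mice per genotype. Each group was split into 3 technical replicates, so p-values measure the spread between portions of 1 pool per genotype and not between animals. The genotype and the pool cannot be told apart.

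DNA methylation in mammals sits mainly on cytosines followed by guanine. Dnmt3a and Dnmt3b place new marks, while Dnmt1, brought to hemimethylated sites by Uhrf1, copies them onto the daughter strand at replication. Tet enzymes oxidize 5-methylcytosine with 2-oxoglutarate and iron, and Tdg excises the further oxidized bases for repair. Idh1 and Idh2 make 2-oxoglutarate from isocitrate. In haematopoiesis DNMT3A, TET2, IDH1 and IDH2 are known as genes mutated in human myeloid disease, and loss of Dnmt3a or Tet2 in mice increases stem cell self-renewal.

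The libraries held 36747729 to 43743795 reads, recovered from the deposited log2 values. Levels are given as CPM (reads per 1000000 of effective library size), and limma was run on the 13018 genes that reached 1 CPM in 3 or more libraries. At an adjusted p below 0.05, 53 genes (0.407%) were higher and 38 (0.292%) lower in Cko, or 0.699% in either direction. Prdm16 was lower in Cko, at 40.8 ± 9.40 CPM in WT and 10.8 ± 3.37 CPM in Cko (SD, n = 3 each), which is -1.93 on the log2 scale (SE 0.27, limma adjusted p = 0.00829). All 10 LT-HSC markers were detected, with summed levels of 2513 to 2690 CPM in WT and 2497 to 2765 CPM in Cko. Of the lineage and gate markers, Cd3e had no read in any library, while Cd48 was at 3.88 to 10.7 CPM in WT and 5.68 to 17.7 CPM in Cko. Markers of mature blood cells had larger sums in every Cko library than in any WT library. The 10 neutrophil markers summed to 301 to 317.2 CPM in WT and 1091 to 1264 CPM in Cko. Most of their WT sum was Prtn3, at 209.2 ± 7.07 CPM in WT and 211 ± 11.8 CPM in Cko, which was not called, while the other 9 were called higher in Cko. None was at 0 throughout WT, but the WT means of Elane and Ctsg were only 0.145 and 0.0153 CPM. The 6 basophil and eosinophil markers summed to 11.9 to 14.4 CPM in WT and 536.1 to 621.4 CPM in Cko, and Epx, Prss34, Mcpt8 and Ms4a2 had no read in WT. Most of their WT sum was Cpa3, at 12.7 ± 0.955 CPM in WT and 12.8 ± 2.51 CPM in Cko, which was not called. The 5 B and plasma cell markers summed to 59.1 to 66.1 and 225 to 241.9 CPM, with Igkc at 0 in WT. Most of their WT sum was Cd79b, which lay lower in every Cko library, at 61 ± 2.86 CPM in WT and 45.6 ± 5.72 CPM in Cko (SD, n = 3 each), and was not called (limma adjusted p = 0.334). The 5 erythroid markers summed to 109.5 to 114.7 and 131.8 to 152.9 CPM, with Hba-a1 at 0 in WT and most of both sums from Gata1, at 91.1 ± 3.82 and 115.2 ± 6.35 CPM. The part of these markers in the values below was not tested. In bulk samples, fewer cells of a type and less RNA per cell cannot be told apart.

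All 10 members passed the filter, and each had at least 1037 reads in every library, so none entered through 1 group. Counting error alone was 0.753% to 2.95% of a member's level, while the spread between replicates was 1.59% to 26.1% (coefficient of variation). At an unadjusted p below 0.05 there was 1 member, Dnmt3b, against 10.3% of all tested genes. Voom in limma also called 0 of 10, with 1 of 10 at an unadjusted p below 0.05. Fitted values were higher in Cko for 9 members and lower for 1, Idh2, with a median log2 fold change of 0.13 against 0.00 over all tested genes. The groups did not overlap for 4 of the 10, against 16.5% of all tested genes. Of these, 3 were higher in Cko, namely Dnmt3b, Tet3 and Idh1, against 8.52% of all tested genes, and 1 was lower, Idh2, against 8.01%.

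**Figure D1:**
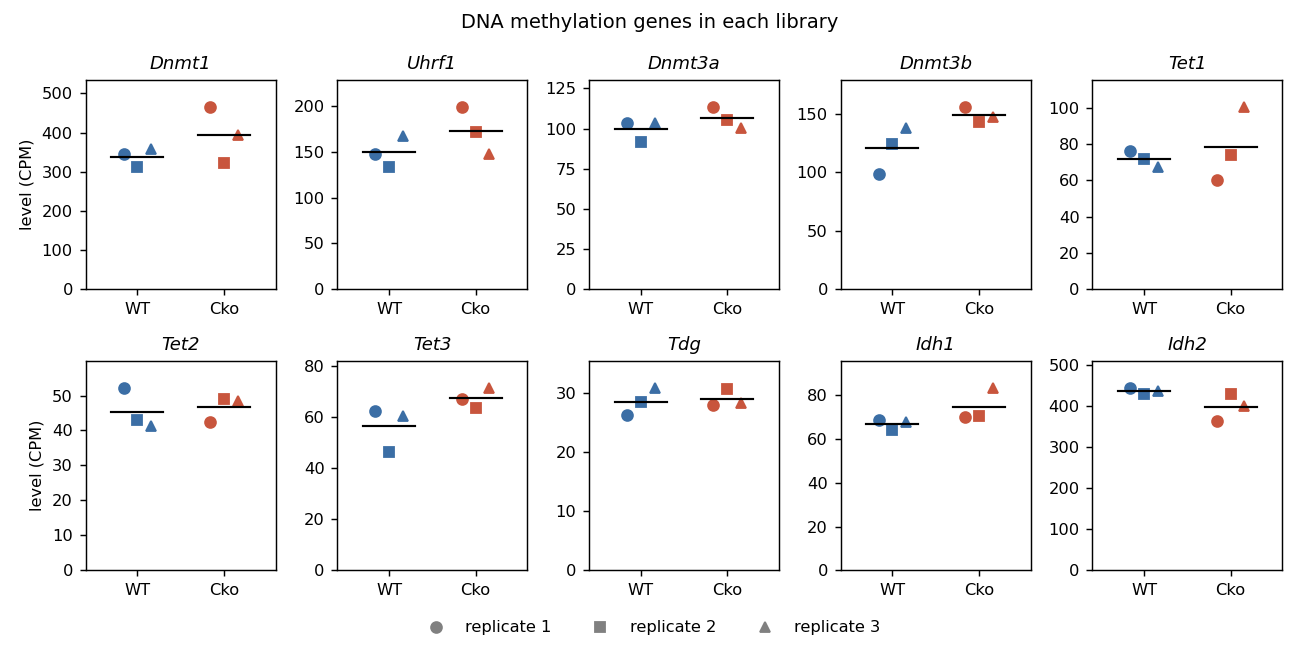
Level in CPM (vertical axes, starting at 0) of each of the 10 genes in the 3 WT libraries (blue) and the 3 Cko libraries (red); marker shapes give the replicate number and lines the group means. Dnmt3b, Tet3 and Idh1 lie higher in all 3 Cko libraries than in any WT library, Idh2 lies lower, and the groups of the other 6 overlap.

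Dnmt1, the maintenance methyltransferase (gene ID 13433, chromosome 9, 20907206 to 20959888, minus strand, mm10), was at 344.4, 310.8 and 358.7 CPM in the WT libraries and 465.4, 323.2 and 393.9 CPM in the Cko libraries. The Cko library of replicate 1 was the highest, and that of replicate 2 lay inside the WT range. The mean was 338 ± 24.6 CPM in WT and 394.2 ± 71.1 CPM in Cko (SD, n = 3 each). Its log2 fold change of 0.21 (SE 0.12, 95% interval -0.06 to 0.48) did not pass the test (limma adjusted p = 0.589). Uhrf1, the reader of hemimethylated DNA that recruits Dnmt1 (gene ID 18140, chromosome 17, 56303337 to 56323486, plus strand), was at 147.1, 133.8 and 167.7 CPM in WT and 199, 171.6 and 148 CPM in Cko. Its groups overlapped through the third Cko library, which lay below the highest WT library. On the log2 scale the difference was 0.20 (SE 0.13, 95% interval -0.08 to 0.49, limma adjusted p = 0.617), close to that of Dnmt1 and likewise not called.

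The levels of the maintenance pair ranked alike in part. In both genes WT replicate 2 was the lowest WT library, WT replicate 3 the highest and Cko replicate 1 the highest of all 6. They parted in the other Cko libraries, where replicate 2 was the lowest for Dnmt1 and replicate 3 for Uhrf1. Per length of exon, Dnmt1 stood at 1.36, 1.35 and 1.25 times Uhrf1 in WT and 1.36, 1.10 and 1.55 times in Cko. The WT ratios lay within the range of the Cko ratios.

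RefSeq (GRCm38.p6) gives 3 start sites for Dnmt1 and 2 for Uhrf1, and the CpG-rich start of each is shown because these were the only 2 of the 16 upstream windows of the 10 genes to hold an E2F-type word, the site of the factors that drive S phase genes. The 250 bases before the start are printed 5′ to 3′ on the gene's strand, with the E2F-type word in capitals.
Dnmt1 (chr9:20952624-20952873, minus strand): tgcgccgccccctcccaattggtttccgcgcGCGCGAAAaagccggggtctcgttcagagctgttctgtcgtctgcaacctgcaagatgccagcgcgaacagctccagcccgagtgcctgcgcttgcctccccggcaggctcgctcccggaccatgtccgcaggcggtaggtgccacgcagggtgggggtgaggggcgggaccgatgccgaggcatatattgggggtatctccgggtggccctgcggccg
Uhrf1 (chr17:56304063-56304312, plus strand): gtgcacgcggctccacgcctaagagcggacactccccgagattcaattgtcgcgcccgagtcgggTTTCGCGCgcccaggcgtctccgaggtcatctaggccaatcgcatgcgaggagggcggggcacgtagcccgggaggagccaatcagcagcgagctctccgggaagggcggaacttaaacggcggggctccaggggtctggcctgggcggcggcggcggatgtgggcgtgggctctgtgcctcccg
The words searched, on both strands, were TTTCCCGC, TTTCGCGC, TTTGCCGC and TTTGGCGC. They occurred in 1.86% of 32851 windows of the same length. The match began 219 bases before this start in Dnmt1, in reverse orientation, and 185 bases before this start in Uhrf1. Both printed windows lie inside the coordinates of their gene, downstream of another of its RefSeq starts. They can therefore hold bases transcribed from that other start, and the distances hold only for the starts shown. The windows held 26 and 30 CpG, against a median of 6 over all windows. A match describes letters and not a bound site, and the gene totals do not tell which start was used.

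Genes that act with the maintenance pair or are transcribed in the same cell cycle phase were also not called. Of 9 tested maintenance partners 0 were called by limma or voom and 0 had an unadjusted p below 0.05, with a median log2 fold change of 0.05. Pcna, the replication clamp that binds Dnmt1, had a log2 fold change of -0.11 (limma adjusted p = 0.694), and Hdac1, a histone deacetylase found in complexes with Dnmt1, one of 0.12 (adjusted p = 0.714). Hells, the remodeller needed for methylation of repeats, was at 73.6 to 96.7 CPM in WT and 87.4 to 104.5 CPM in Cko. Dppa3, which keeps Uhrf1 off chromatin in oocytes and early embryos, had no read in any library. Of 17 S phase genes 0 were called by either fit and 3 had an unadjusted p below 0.05, with a median of 0.06. Of these 3, Mcm7, a helicase subunit, had a log2 fold change of -0.18 (limma adjusted p = 0.36), its partner Mcm4 one of 0.35 (adjusted p = 0.396) and Ccne1, a cyclin of S phase entry, one of 0.67 (adjusted p = 0.423). The groups did not overlap for Mcm7 and Ccne1. Of 10 genes of dividing cells 0 were called by either fit and 2 had an unadjusted p below 0.05. The inhibitor of apoptosis Birc5, also a mitotic protein, had a log2 fold change of -0.33 (adjusted p = 0.281) and the topoisomerase Top2a one of -0.25 (adjusted p = 0.414). The summed level of the 10 ran from 1390 to 1479 CPM in WT and from 1321 to 1427 CPM in Cko.

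Dnmt3b, a de novo methyltransferase (gene ID 13436, chromosome 2, 153649411 to 153687730, plus strand), had the smallest p of the 10. It was at 98.7, 124.4 and 137.6 CPM in WT and 155.7, 143.2 and 146.8 CPM in Cko. Every Cko library was above every WT library, and the nearest pair differed by less than the spread within WT. The mean was 120.2 ± 19.8 CPM in WT and 148.6 ± 6.43 CPM in Cko (SD, n = 3 each). On the log2 scale this was a difference of 0.32 (SE 0.13, 95% interval 0.03 to 0.61), which had an unadjusted p of 0.0338 in limma and did not pass the test (adjusted p = 0.428). Among all tested genes 7.89% had a smaller p. The lowest WT library, replicate 1, took part in this: without it the value was 0.18, and without WT replicate 3 it was 0.42.

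The 250 bases before the RefSeq start given for Dnmt3b are shown because it was the member nearest to a call; capitals mark the GC box GGGCGG on either strand.
Dnmt3b (chr2:153649199-153649448, plus strand): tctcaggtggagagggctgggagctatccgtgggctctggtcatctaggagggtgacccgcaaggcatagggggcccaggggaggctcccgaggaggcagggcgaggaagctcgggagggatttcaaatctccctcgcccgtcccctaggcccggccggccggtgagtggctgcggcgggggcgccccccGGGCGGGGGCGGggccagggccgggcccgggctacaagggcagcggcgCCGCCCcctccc
This window held 21 CpG and 3 GC boxes, the first 2 side by side. The coordinates of the gene begin at 153649411, so the end of the window, with the third GC box, lies inside them. Of the 16 windows of the 10 genes 13 held a GC box, in 9 genes, and 8 held the word CCAAT on either strand, against 32.7% and 33.8% of all windows. The 16 were not all separate stretches, as windows 1 and 2 of Dnmt3a overlap and share a GC box. The windows of the 10 genes held 2 to 51 CpG, with 15 of 16 above the median, and that of Tet2 had the most. Promoters of widely expressed genes are in general rich in CpG.

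Dnmt3a, the other de novo enzyme (gene ID 13435, chromosome 12, 3801559 to 3914443, plus strand), was at 103.3, 91.8 and 103.7 CPM in WT and 113.4, 105.4 and 100.1 CPM in Cko. Its groups overlapped, as the third Cko library lay below 2 of the WT libraries. The difference was 0.09 on the log2 scale (SE 0.11, 95% interval -0.15 to 0.34, limma adjusted p = 0.815). As a fold, this interval ran from 0.9 to 1.27. An antisense gene within it, Dnmt3aos, had at most 15 reads in any library, against at least 3383 for Dnmt3a. Gene totals do not separate the long and short protein isoforms of Dnmt3a, nor catalytically inactive splice forms of Dnmt3b.

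Per length of exon the balance of the de novo pair leaned to Dnmt3b in all libraries. The ratio of Dnmt3b to Dnmt3a was 2.19, 3.11 and 3.04 in WT and 3.15, 3.11 and 3.36 in Cko. All 3 Cko ratios were above all 3 WT ratios, but the highest WT ratio and the lowest Cko ratio were equal to 2 decimals, and WT replicate 1 stood well below the other 5 libraries. Of the summed Dnmt level per kb, Dnmt1 made up 58.7% ± 3.07 in WT and 57.8% ± 3.53 in Cko, and Dnmt3b 30.3% ± 3.80 and 32.1% ± 2.59 (SD, n = 3 each). Dnmt3l, the catalytically inactive partner of the de novo enzymes in germ cells, was at 0 to 0.711 CPM and was not tested. Of 6 tested genes that direct de novo methylation 0 were called by limma or voom, none with an unadjusted p below 0.05. Smchd1, a repressor of the inactive X chromosome, had a log2 fold change of -0.24 (adjusted p = 0.66) and Kdm1b, a histone H3K4 demethylase, one of 0.31 (adjusted p = 0.833).

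**Figure D2:**
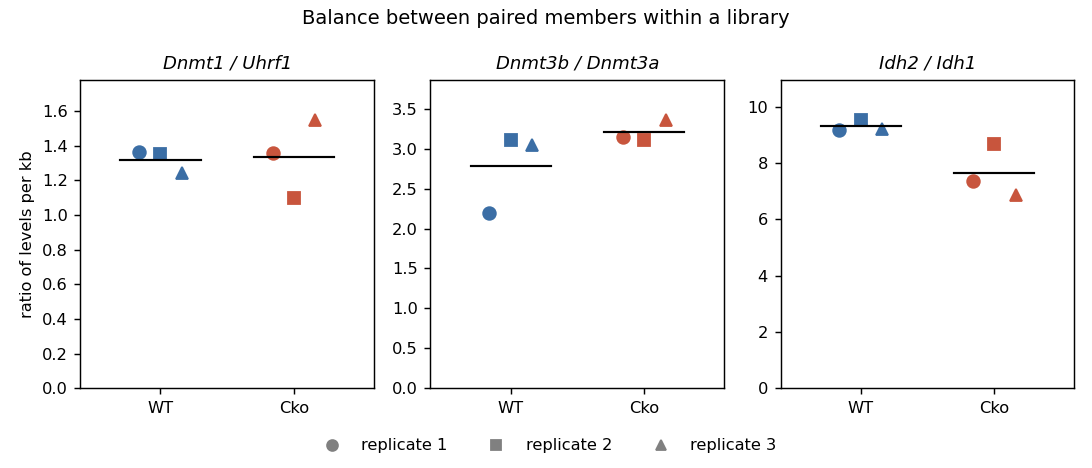
Ratio of levels per kb of exon (vertical axes, starting at 0) of Dnmt1 to Uhrf1, Dnmt3b to Dnmt3a and Idh2 to Idh1 in each WT (blue) and Cko (red) library; shapes give the replicate number and lines the group means. The Idh2 to Idh1 ratio is 9.18 to 9.53 in WT and 6.88 to 8.67 in Cko, the Dnmt1 to Uhrf1 ratios overlap, and the lowest Dnmt3b to Dnmt3a ratio is that of WT replicate 1.

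Tet1 (gene ID 52463, chromosome 10, 62804570 to 62887469, minus strand), a Tet enzyme with a CXXC domain that binds unmethylated CpG, was at 76, 71.5 and 67.4 CPM in WT and 60.4, 73.8 and 100.5 CPM in Cko. The Cko libraries held both the lowest and the highest value, and their coefficient of variation, 26.1%, was the largest of any member in either group. The log2 fold change of 0.10 (SE 0.18, 95% interval -0.30 to 0.50, limma adjusted p = 0.896) turned to -0.10 without Cko replicate 3. Tet2 (gene ID 214133, chromosome 3, 133463677 to 133545136, minus strand), which has lost the CXXC domain, was at 52, 42.9 and 41.4 CPM in WT and 42.5, 49.1 and 48.3 CPM in Cko. The groups overlapped throughout, with the highest library in WT. Its log2 fold change was 0.04 (SE 0.16, 95% interval -0.30 to 0.39, limma adjusted p = 0.957).

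Tet3 (gene ID 194388, chromosome 6, 83362373 to 83457208, minus strand), the Tet enzyme known for oxidizing the paternal genome in the zygote, was at 62.5, 46.4 and 60.4 CPM in WT and 67.3, 63.7 and 71.3 CPM in Cko. The groups did not overlap, but the lowest Cko library was only just above the highest WT library. The mean was 56.4 ± 8.74 CPM in WT and 67.4 ± 3.79 CPM in Cko (SD, n = 3 each). Its log2 fold change of 0.27 (SE 0.15, 95% interval -0.07 to 0.60) did not pass the test (limma adjusted p = 0.576). Of the summed Tet level per kb, the 3 enzymes made up 33.9% ± 2.32, 33.5% ± 1.84 and 32.6% ± 3.42 in WT for Tet1, Tet2 and Tet3 in turn. The shares in Cko were 33.1% ± 4.71, 31.3% ± 2.47 and 35.6% ± 3.35, so each differed from WT by less than its SD in 1 of the groups or both.

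Regulators of the Tet enzymes were examined as a list of 10, of which 6 were tested. By limma 0 were called, 0 by voom, and 1 had an unadjusted p below 0.05. That gene was Oga, which removes the O-GlcNAc sugar that Ogt, a Tet partner, attaches. Oga was at 150.1 ± 12.2 CPM in WT and 187.2 ± 11.8 CPM in Cko (SD, n = 3 each), a difference of 0.32 on the log2 scale (SE 0.10, limma adjusted p = 0.283). Cxxc5, a CXXC protein related to Cxxc4, which lies next to Tet2, was at 148.7 ± 5.20 and 129.5 ± 5.03 CPM, a log2 fold change of -0.20 (adjusted p = 0.497). The groups of both genes did not overlap. Wt1 and Sall4, known Tet2 partners in other cells, had no read in any library.

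Tdg, thymine DNA glycosylase (gene ID 21665, chromosome 10, 82629814 to 82650799, plus strand), was the lowest member in CPM. It was at 26.3, 28.5 and 30.8 CPM in WT and 28.1, 30.8 and 28.3 CPM in Cko, and the Cko values lay inside the WT range. The difference was 0.03 on the log2 scale (SE 0.17, 95% interval -0.35 to 0.40, limma adjusted p = 0.977). Reads could be shared with pseudogenes of Tdg, so its value is uncertain: Tdg-ps2 was at 4.39 ± 0.583 CPM in WT and 4.90 ± 1.09 CPM in Cko, and Tdg-ps had 9 to 12 reads per library. The neighbour Glt8d2, which overlaps the end of Tdg on the other strand, was at 3.10 CPM in both groups, and without a stated strand setting reads of the overlap cannot be assigned. Of 12 tested base excision partners 0 were called by limma or voom, none with an unadjusted p below 0.05, and the median was 0.02. The values nearest to a call were Gadd45b, a stress-induced factor, with a log2 fold change of -0.70 (adjusted p = 0.559), and Xrcc1, a repair scaffold, with 0.33 (adjusted p = 0.609).

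Idh2, the mitochondrial isocitrate dehydrogenase (gene ID 269951, chromosome 7, 80094845 to 80118608, minus strand), was the most abundant member. It was at 443.7, 430 and 438.6 CPM in WT and 363.5, 429.3 and 402 CPM in Cko. The groups did not overlap, but the second Cko library lay just below the lowest WT library, and after centring each library on its median or quantile normalization the groups overlapped. The mean was 437.4 ± 6.94 CPM in WT and 398.3 ± 33.1 CPM in Cko (SD, n = 3 each). Its log2 fold change of -0.14 (SE 0.07, 95% interval -0.31 to 0.03) did not pass the test (limma adjusted p = 0.562). Idh1, the cytosolic enzyme (gene ID 15926, chromosome 1, 65158616 to 65186479, minus strand), was at 68.6, 64 and 67.6 CPM in WT and 70.1, 70.3 and 83 CPM in Cko. The third Cko library stood above the other 5, which lay between 64 and 70.3 CPM. Its log2 fold change of 0.15 (SE 0.13, 95% interval -0.13 to 0.44) was not called (limma adjusted p = 0.715).

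The values of the 2 isocitrate dehydrogenases went in opposite directions, and their ratio per kb kept the groups apart. Idh2 over Idh1 was 9.18, 9.53 and 9.21 in WT and 7.36, 8.67 and 6.88 in Cko, with means of 9.31 ± 0.195 and 7.63 ± 0.925 (SD, n = 3 each). Every Cko library was lower in Idh2 and higher in Idh1 than any WT library, so the ratio had to keep the groups apart. It adds nothing to the values of the 2 genes. The ratio was chosen after the values were seen and was given no test, and the difference of the means rested in part on the third Cko library.

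Of 24 genes of 2-oxoglutarate supply and removal, all tested, 0 were called by limma or voom and 2 had an unadjusted p below 0.05. Got1, the cytosolic aspartate aminotransferase, was at 43.4 ± 2.94 CPM in WT and 58 ± 1.45 CPM in Cko (SD, n = 3 each), a difference of 0.42 on the log2 scale (SE 0.14, limma adjusted p = 0.299). Idh3g, a regulatory subunit of the mitochondrial NAD-dependent isocitrate dehydrogenase, was at 401.4 ± 20.6 and 356.1 ± 16.9 CPM, a difference of -0.17 on the log2 scale (SE 0.07, limma adjusted p = 0.442). Its catalytic partner Idh3a had -0.07 and the other subunit Idh3b 0.06, neither called. D2hgdh, which removes D-2-hydroxyglutarate, had a log2 fold change of 0.07 (adjusted p = 0.942). Bcat1, a branched-chain aminotransferase that consumes 2-oxoglutarate, was at 0 to 3.34 CPM over the 6 libraries. Its fitted log2 value was 1.30 with no read in WT replicate 1, while its mean was 1.62 CPM in WT and 1.12 CPM in Cko, so the 2 measures differed in sign.

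The methyl donor cycle and the readers of methylated DNA gave the same outcome. Of 12 tested genes of the S-adenosylmethionine cycle 0 were called by limma or voom and 1 had an unadjusted p below 0.05. That was Mthfd1, a folate cycle enzyme, with a log2 fold change of 0.25 (adjusted p = 0.416), while its mitochondrial relative Mthfd2 had 0.76 (adjusted p = 0.526). Mat2a, which makes S-adenosylmethionine in blood cells, was at 685.6 to 824.3 CPM in WT and 742 to 788.4 CPM in Cko. All 8 methyl-CpG readers were tested, 0 were called by limma or voom and none had an unadjusted p below 0.05. Mbd4, a reader that is also a thymine glycosylase like Tdg, had a log2 fold change of 0.35 (adjusted p = 0.548), with groups that did not overlap.

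Over the 9 lists of pathway and cell cycle genes 104 distinct genes were tested. None was called by limma or voom, and 9 (8.65%) had an unadjusted p below 0.05, against 10.3% of all tested genes. The groups did not overlap for 15 (14.4%), against 16.5%. Neither share was above the background.

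**Figure D3:**
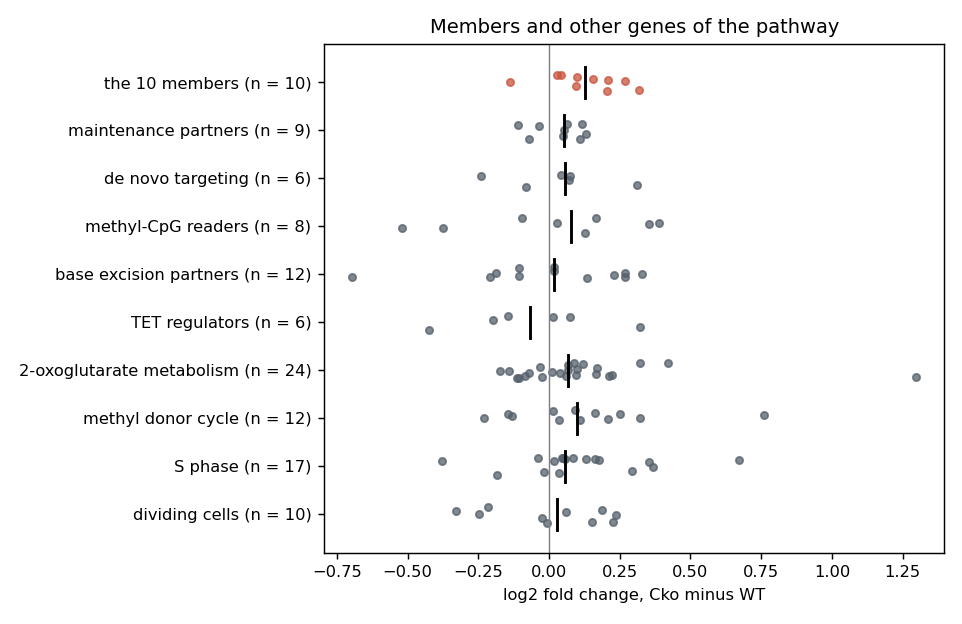
Log2 fold change, Cko minus WT (horizontal axis), of each tested gene (points) of the 10 members (red) and of 9 lists of related genes (grey), with the median of each as a black line; vertical scatter is for display. Medians run from -0.07 for the Tet regulators to 0.13 for the members, and the point at 1.30 is Bcat1.

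The difference of each member was bounded more tightly than that of most genes. The 95% interval excluded a 2-fold change in either direction for 10 of 10 members, against 70.1% of all tested genes. This bound holds between the 2 pools only. The tested genes were not matched to the members in level: each member had at least 1037 reads in every library, while tested genes needed only 1 CPM in 3 libraries. Standard errors of the members ran from 0.07 for Idh2 to 0.18 for Tet1, with a median of 0.13 against 0.20 over all tested genes. A smaller difference, of up to 1.52-fold for Dnmt3b and Tet3, was within the intervals.

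**Figure D4:**
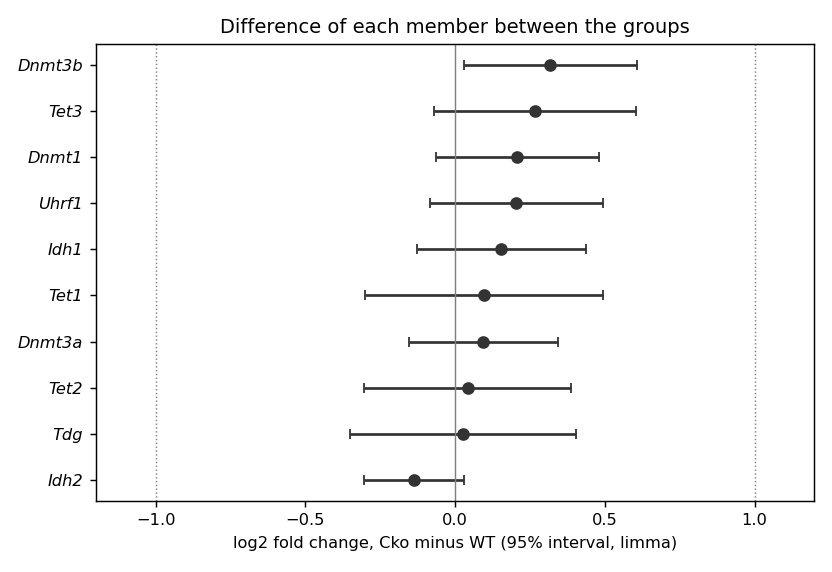
Log2 fold change, Cko minus WT (horizontal axis), of the 10 members with 95% intervals from limma; dotted lines mark a 2-fold change. Values run from -0.14 for Idh2 to 0.32 for Dnmt3b, and the interval of Dnmt3b alone leaves out 0 before adjustment.

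Levels of different genes were compared per kb of exon, with lengths from the union of GENCODE M21 exons. In WT, Idh2 led at 250.7 ± 3.97 CPM per kb, above 98.1% of tested genes with a length. Dnmt1 followed at 53.6 ± 3.90, Uhrf1 at 40.8 ± 4.65, Dnmt3b at 27.8 ± 4.57 and Idh1 at 26.9 ± 0.969 CPM per kb (SD, n = 3 each). Dnmt3b and Idh1 did not differ beyond their spread, whereas the ranges of the other neighbours down to Tet1 did not overlap. Dnmt3a stood at 10 ± 0.681 and Tdg at 8.08 ± 0.639 CPM per kb. The 3 Tet genes were lowest, at 4.98 ± 0.299, 4.93 ± 0.626 and 4.81 ± 0.744 CPM per kb for Tet1, Tet2 and Tet3, with ranges that overlapped between neighbours, above 29.5% to 30.1% of tested genes with a length. In Cko the order was the same down to Tdg, and Tet3 came before Tet1 and Tet2 with ranges that overlapped between neighbours, as did those of Dnmt1 and Uhrf1. With the length of the longest transcript in place of the exon union, Idh1 and Dnmt3b changed places in WT and Tet3 moved ahead of Tet1 and Tet2.

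**Figure D5:**
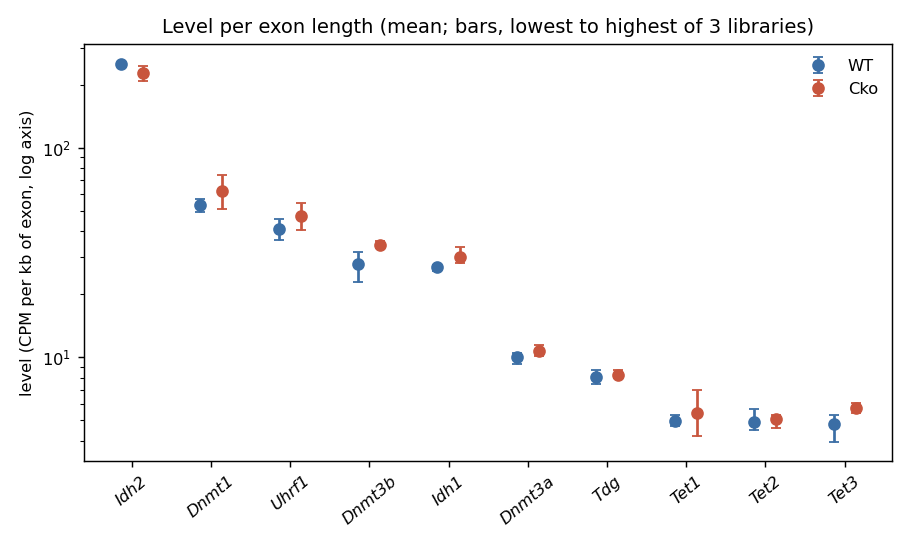
Level in CPM per kb of exon (vertical log axis) of the 10 members, ordered by their WT mean, for WT (blue) and Cko (red); points are means and bars run from the lowest to the highest of 3 libraries. Idh2 stands at 250.7 in WT and the 3 Tet genes near 5.

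No library stood out for all members. In WT, replicate 2 was the lowest library for 6 members and the highest for 0, while replicates 1 and 3 were each the highest for 5. The Tet and Idh genes peaked in WT replicate 1, and the Dnmt genes, Uhrf1 and Tdg in WT replicate 3. In Cko, replicate 1 was the highest for the same 4 writers, Dnmt1, Dnmt3a, Dnmt3b and Uhrf1, and the lowest for Tet1, Tet2, Idh1, Idh2 and Tdg. These are ranks among portions of 1 pool, within which the genotype does not vary.

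For the 3 members with the smallest p, the tested genes with the most alike pattern were found by the mean absolute difference of centred log2 values over the 6 libraries. For Dnmt3b these were Zfp710 (0.03), an unnamed gene with ID 100503819 (0.04) and Gp5, a platelet glycoprotein (0.04), against a median of 0.26 over all tested genes. For Idh2 they were Snx5, Ppp1r11 and Bag6, each at 0.02 against a median of 0.21. For Tet3 they were Atp2c1 (0.03), H2-T24 (0.03) and the kinase Syk (0.04), against 0.25. None of these 9 genes was called by limma. That was largely set by choosing them for values close to those of members that were not called.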

How the data were processed

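RNA-seq libraries of sorted LT-HSC, 3 WT and 3 Cko, were used. The submitters' processing notes name HISAT2, featureCounts, FastQC, limma and mm10, without versions. How reads were assigned by strand, or when mapped to several places, is not stated in the sources used here. The authors deposited log2 values of CPM (counts per 1000000) per gene ID. Undoing log2 of (reads + 0.5) per 1000000 of effective library size gave whole reads within 0.01 for 100% of values. Gene names came from RefSeq GRCm38.p6, the assembly mm10 names, which matched 25275 of 27179 IDs, all 10 members among them. Lengths came from GENCODE M21, and upstream sequences from RefSeq, the words being searched in 250 bases. Of the 16 windows 15 had the bases after the start in a GENCODE transcript of the gene.

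The fit used limma 3.58.1 (lmFit, eBayes with trend, no block; R 4.3.3) and the genes that reached 1 CPM in 3 or more libraries, with Benjamini-Hochberg adjustment over 13018 genes. Fold changes are on the scale of the deposited log2 values. Pairs of libraries gave a chi-square over its degrees of freedom of 42.4 to 59.1 within groups and 61.6 to 94.3 between them, so no library was a repeat of another. Counting errors cover counting only. The members, lists and tests were chosen with earlier results of these data known. Named genes were the 10 members, from each pathway list the called genes or else the 2 with the smallest p, Prdm16 and the 3 most alike genes of 3 members; other genes named were chosen after their values were seen. Some genes that this rule names are not reported here. Alternatives were voom, robust eBayes, eBayes without the trend, no filter, a filter at 5 CPM, quantile normalization, centring on the median, log2(CPM + 1), log2(CPM + 5), replicate number as a block, and leaving out each library. Figures were drawn with matplotlib 3.10.9.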

Additional observations from a re-analysis of the deposited data

How the results depend on the processing

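Under all 16 alternatives 0 of the 10 members were called, and 0 genes in each of the 9 pathway lists; the smallest adjusted p of a member was 0.274. The sign of the fold change was as reported in 156 of 160 refits. The 4 exceptions were Tdg without WT replicate 1 (-0.0312) and without Cko replicate 2 (-0.0164), Tet2 without WT replicate 3 (-0.0211) and Tet1 without Cko replicate 3 (-0.10). Leaving out 1 library gave 0.08 to 0.34 for Dnmt1, 0.10 to 0.31 for Uhrf1, 0.04 to 0.14 for Dnmt3a, 0.18 to 0.42 for Dnmt3b, -0.10 to 0.27 for Tet1, -0.0211 to 0.14 for Tet2, 0.13 to 0.35 for Tet3, -0.0312 to 0.0829 for Tdg, 0.07 to 0.20 for Idh1 and -0.19 to -0.07 for Idh2. Members whose groups did not overlap numbered 3 after median centring or quantile normalization, Idh2 being lost, and 4 to 6 on leaving out a library.

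Over all genes, the higher calls (53) became 83 without the filter, 105 with log2(CPM + 1), 104 with log2(CPM + 5) and 20 to 66 on leaving out a library. The lower calls (38) became 15 without the trend, 59 and 64 with log2(CPM + 1) and log2(CPM + 5), and 22 to 31 on leaving out a library. The higher calls were 20, 20 and 24 without Cko replicates 1, 2 and 3, and the lower calls 25, 22 and 22 without WT replicate 2, WT replicate 3 and Cko replicate 2. The cause was not tested. With replicate number as a block they were 44 higher and 23 lower, and 0 members. Deviations of same-numbered libraries correlated at -0.0101, -0.0211 and 0.0195 over genes, so no pairing by number was seen over the tested genes as a whole. Such a correlation cannot tell of an effect shared on a few genes, which was not tested. The spread between portions of 1 pool limits all p-values and intervals.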
